A study of Mus musculus with 6 samples.

Results

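Gdpd3 and its relatives Gdpd1, Gdpd5 and Gde1 encode glycerophosphodiester phosphodiesterases, and they were followed on 6 oligonucleotide arrays of mouse CD4+CD25+ cells. Every probe set that the platform annotation gives to one of these 4 genes was taken, which gave 4 of 12393 named genes and 5 of 22626 probe sets: 1 for Gdpd3, a pair for Gdpd1, 1 for Gdpd5 and 1 for Gde1. Gdpd3 was chosen because its difference between the groups was the greatest positive one among all probe sets, so its difference is given as a description with no test. The other 3 genes were chosen by family and not by their values. The knockout group (3 arrays) came from C57BL6 mice labelled fl-DNMT1/Foxp3cre, carrying floxed Dnmt1 and a Cre recombinase tied to Foxp3. Dnmt1 is the methyltransferase that maintains DNA methylation. The wild type group (3 arrays) came from C57BL6 mice labelled as wild type, with no Cre or floxed allele stated. Cells of both groups were separated with magnets as CD4+CD25+ cells, a population rich in regulatory T cells (Treg), whose lineage factor is Foxp3. The sources used here give neither ages nor the number of mice behind each array, so the p-values measure the spread between these samples, which may be technical. Cre tied to Foxp3 acts in cells that express Foxp3, and a change made by Cre or by the floxed allele itself cannot be told apart from one made by losing Dnmt1.

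Enzymes of this family split glycerophosphodiesters, which are phospholipids or their deacylated remains, into an alcohol and a glycerol phosphate. Gdpd1 (also GDE4) and Gdpd3 (also GDE7) act as lysophospholipase D enzymes and can release lysophosphatidic acid, a signalling lipid, and N-acylethanolamines. Gdpd5 (also GDE2) is a membrane enzyme that acts at the cell surface and releases proteins held by a glycosylphosphatidylinositol (GPI) anchor, and it also degrades glycerophosphocholine. Gde1 hydrolyses glycerophosphoinositol and the glycerophospho forms of N-acylethanolamines.

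The starts of Gdpd3, Gdpd1 and Gde1 are shown because CG dinucleotides are the sites that the maintenance methyltransferase copies when DNA is replicated. DNA methylation was not measured here. Each sequence is the RefSeq promoter window of GRCm38.p6, with 250 bases before and 50 after the annotated start, read 5′ to 3′ on the strand of the gene, and capitals mark every CG. Of the 4 genes, 3 were matched by symbol, and Gdpd5 is named only. The Gdpd3 window lies at chr7:126766164-126766463 on the plus strand, the Gdpd1 window at chr11:87074088-87074387 on the minus strand and the Gde1 window at chr7:118705689-118705988 on the minus strand.
Gdpd3: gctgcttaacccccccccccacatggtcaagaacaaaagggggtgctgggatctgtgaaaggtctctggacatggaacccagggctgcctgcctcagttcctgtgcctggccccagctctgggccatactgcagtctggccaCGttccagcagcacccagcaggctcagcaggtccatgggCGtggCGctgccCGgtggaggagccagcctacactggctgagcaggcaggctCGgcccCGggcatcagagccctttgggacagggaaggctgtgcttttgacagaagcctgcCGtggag
Gdpd1: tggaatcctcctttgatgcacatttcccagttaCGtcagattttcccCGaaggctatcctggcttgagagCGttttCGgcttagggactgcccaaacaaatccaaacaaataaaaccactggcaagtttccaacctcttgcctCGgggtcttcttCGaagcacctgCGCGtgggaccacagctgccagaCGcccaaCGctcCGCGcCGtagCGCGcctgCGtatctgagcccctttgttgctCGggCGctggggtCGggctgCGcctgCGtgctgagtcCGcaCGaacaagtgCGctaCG
Gde1: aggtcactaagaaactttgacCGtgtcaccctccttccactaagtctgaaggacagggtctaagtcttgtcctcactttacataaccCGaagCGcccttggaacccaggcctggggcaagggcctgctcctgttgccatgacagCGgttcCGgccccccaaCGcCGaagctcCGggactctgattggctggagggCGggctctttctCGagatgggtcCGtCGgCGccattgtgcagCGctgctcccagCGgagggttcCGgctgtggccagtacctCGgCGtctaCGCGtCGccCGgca
The motif searched was CG, which reads the same on both strands and cannot overlap itself. The Gdpd3 window held 7 CG, which equals the median over 32851 RefSeq promoter windows of the same length, whose quartiles were 3 and 20. The Gdpd1 window held 25 CG and the Gde1 window 22. Of all windows, 94.6% held at least 1 CG, and 51.4% held as many as Gdpd3 or fewer, against 83.1% for Gdpd1 and 78.5% for Gde1. Relative to the number that its C and G content would give, the Gdpd3 window had 0.226 of the CG, against 0.989 for Gdpd1 and 0.757 for Gde1. The GC content of the windows was 64.3% for Gdpd3, 58.3% for Gdpd1 and 62.3% for Gde1.

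Values are log2 expression made by the authors with RMA (robust multi-array average), which normalises between arrays and compresses low levels, so folds of dim probe sets are understated. The targeted gene Dnmt1 had 8.67, 8.89 and 9.34 on knockout arrays 1, 2 and 3 by its brighter probe set, against 9.56, 9.43 and 9.50 on wild type arrays 1, 2 and 3, a difference of -0.53 that did not pass (SE 0.16, limma adjusted p = 0.162). Foxp3 had 9.28, 8.82 and 8.43 in the knockout, against 9.47, 9.51 and 9.51 in wild type (adjusted p = 0.151). Over all genes limma called 1.32% higher and 0.516% lower. Of the T cell and Treg marker list 0 of 11 were higher and 2 lower in the knockout (Il2ra and Ikzf2). All 11 had a negative difference, with a median of -0.28 against -0.014 over all genes. Levels summed over a marker list are given as linear RMA values. For the T cell and Treg list these sums ran from 15470 to 20254 in the knockout and from 19195 to 20308 in wild type. Of the neutrophil markers 9 of 15 were higher in the knockout, with sums of 14230, 62955 and 25537 on knockout arrays 1, 2 and 3, against 1699 to 2747 in wild type. Of the monocyte and macrophage markers 1 of 12 was higher (Cd14), with sums of 1565 to 4463 in the knockout and 718 to 1495 in wild type. All 12 had a positive difference, with a median of 0.94. Of the natural killer (NK) cell markers 1 of 8 was higher (Ncr1), with sums of 2695 to 5607 in the knockout and 2847 to 3095 in wild type. Their differences were positive in 7 and negative in 1, with a median of 0.59. Of 8 epithelial markers, Cdh1 was higher, and the sums ran from 237 to 268 in the knockout and from 263 to 278.5 in wild type. Of 6 B cell markers 0 passed, with sums of 1264 to 2283 in the knockout and 1512 to 3533 in wild type. Of 5 erythroid markers 0 passed, but 3 were higher on every knockout array than on any wild type array. These were Alas2 (1.52), Slc4a1 (1.16) and Epb42 (0.19). All 5 had a positive difference, with a median of 0.31. The smallest was that of the globin gene Hba-a1 (0.0006), whose probe set was dim, with a mean of 3.29 in both groups. Over all genes, 25.0% had groups without overlap in either direction. The groups also did not overlap in 14 neutrophil, 5 T cell and Treg, 3 monocyte and macrophage, 3 NK cell, 3 epithelial and 0 B cell markers. The erythroid sums were 165, 129 and 310.3 on knockout arrays 1, 2 and 3, against 83.5 to 109.5 in wild type. No marker value is at 0 on the RMA scale, which has no zero.

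Gdpd3 was high on all 3 knockout arrays and low on all 3 wild type arrays. Probe set 1449526_a_at had a log2 level of 11.98, 11.75 and 11.47 on knockout arrays 1, 2 and 3, against 5.12, 5.60 and 5.71 on wild type arrays 1, 2 and 3. The lowest knockout array stood 5.76 above the highest wild type array, while the arrays ranged over 0.52 within the knockout and over 0.59 within wild type. The means were 11.73 ± 0.26 in the knockout and 5.48 ± 0.31 in wild type (SD, n = 3 each), a difference of 6.26 (SE 0.18) or 76.4-fold. The values that chose Gdpd3 are these, so the 1.68% of all probe sets that limma called in either direction at an adjusted p under 0.05, and the 23.4% whose groups do not overlap, are given only as the background. The next probe set in size of rise, 1456182_x_at, which has no single gene symbol in the annotation, had a difference of 6.19. After it came 1417714_x_at (5.41), 1433438_x_at (5.335) and 1456456_x_at (4.65), also without a single symbol. The next gene with a symbol of its own was Ltf, which encodes the granule protein lactoferrin, at 4.60. With each array left out in turn, the Gdpd3 difference lay between 6.08 and 6.39. These are bulk samples, in which more cells of a type and more RNA per cell cannot be told apart.

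**Figure D1:**
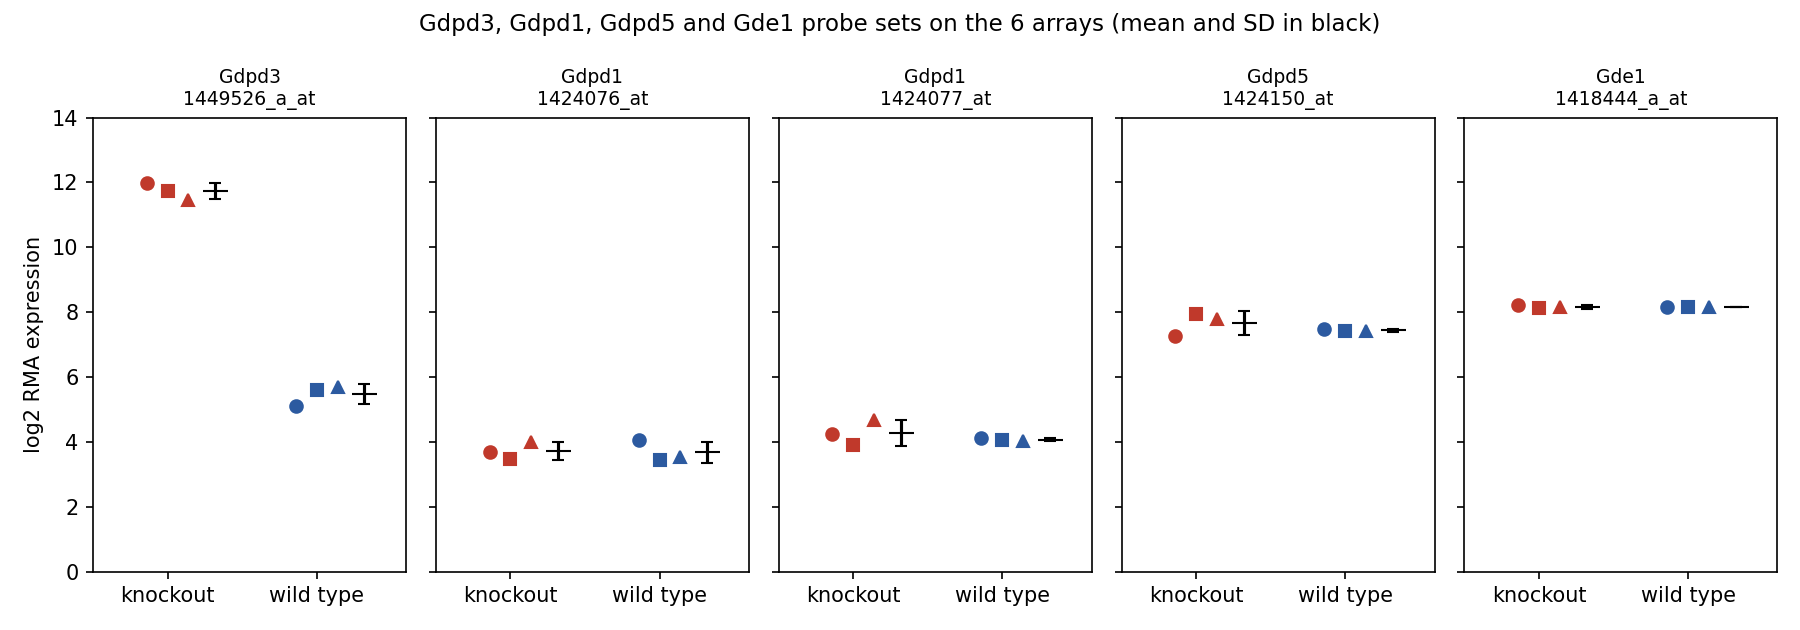
Log2 RMA expression of the 5 probe sets of Gdpd3, Gdpd1, Gdpd5 and Gde1, 1 panel each, on the knockout arrays (red) and the wild type arrays (blue), with circles, squares and triangles for arrays 1, 2 and 3 of a group and the mean and SD (n = 3) in black. Gdpd3 shows knockout values of 11.47 to 11.98, apart from wild type values of 5.12 to 5.71, while the groups overlap in the other 4 probe sets. Levels are not comparable between panels, since probe sets differ in their probes.

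Among the relatives, 0 of the 4 probe sets of Gdpd1, Gdpd5 and Gde1 passed, where 1.68% of all probe sets did (1.19% higher and 0.486% lower), and 0 had an unadjusted limma p under 0.05. No other tool was run on them. The groups overlapped in all 4, which was also so for most probe sets of the table. The differences were all positive, from 0.0078 to 0.22, against a median of -0.019 over all probe sets.

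Gdpd1, the closest in known activity to Gdpd3, had values towards the low end of the scale by both of its probe sets, and RMA values do not say whether these lie above background. Probe set 1424077_at had 4.23, 3.91 and 4.69 on knockout arrays 1, 2 and 3, against 4.11, 4.06 and 4.03 in wild type. The knockout arrays lay on both sides of the wild type values, with array 3 above and array 2 below them. The difference was 0.21 (SE 0.18, limma adjusted p = 0.607), and its 95% interval ran from 0.868-fold to 1.54-fold. Without knockout array 3 it was 0.0035, and without knockout array 2 it was 0.39. Probe set 1424076_at had 3.71, 3.47 and 4.01 in the knockout, against 4.05, 3.44 and 3.54 in wild type. Here too the groups overlapped, and the single highest value was that of wild type array 1. That difference was 0.051 (SE 0.19, limma adjusted p = 0.922), with a 95% interval from 0.762-fold to 1.41-fold. Its sign turned without wild type array 2 or 3 and without knockout array 3. Both probe sets were highest on knockout array 3 and lowest on knockout array 2 among the knockout arrays. The summed erythroid markers had the same order (165, 129 and 310.3), and the part of these cells in the Gdpd1 values was not tested.

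Gdpd5, the surface enzyme that acts on GPI anchors, had 7.27, 7.96 and 7.79 on knockout arrays 1, 2 and 3, against 7.50, 7.41 and 7.43 in wild type. Knockout array 1 lay below all wild type arrays and the other knockout arrays above them. The difference was 0.22 (SE 0.17, limma adjusted p = 0.547), with a 95% interval from 0.894-fold to 1.53-fold. Without knockout array 1 the difference was 0.43 (limma adjusted p = 0.0678), and without knockout array 2 it was 0.080 (adjusted p = 0.848). The knockout arrays stood in the same order for Gdpd5 as for the summed neutrophil markers (14230, 62955 and 25537). The sums of the monocyte and macrophage (1565, 4463 and 2269), NK cell (2695, 5607 and 4602) and B cell markers (1264, 2283 and 2235) had this order too. By mean log2 the B cell list was instead highest on knockout array 3 (7.28, 7.90 and 7.93), while the other lists kept the order. The part of any of these cells in the Gdpd5 values was not tested.

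Gde1 was the steadiest of the 4 genes. Its probe set had 8.23, 8.12 and 8.15 on knockout arrays 1, 2 and 3, against 8.157, 8.160 and 8.155 in wild type. The wild type arrays fell within the range of the knockout arrays. The difference was 0.0078 (SE 0.073, limma adjusted p = 0.971), and its 95% interval, from 0.893-fold to 1.13-fold, was the narrowest of the relatives. Its sign turned without knockout array 1 and with median centring. The SD among the wild type arrays was 0.0023, and 0.0575% of all probe sets had a smaller one. Among the knockout arrays the SD was 0.054, and 14.7% had a smaller one.

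The spread between arrays differed among the members. The SD among knockout arrays was 0.26 for Gdpd3, 0.27 and 0.39 for the Gdpd1 probe sets, 0.36 for Gdpd5 and 0.054 for Gde1, against medians over all probe sets of 0.124 in the knockout and 0.0987 in wild type. In wild type the SD was 0.31 for Gdpd3 and 0.32 for Gdpd1 probe set 1424076_at, where 97.0% and 97.3% of probe sets varied less. It was 0.041 for the other Gdpd1 probe set and 0.045 for Gdpd5.

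Array by array, each member was set against its own wild type mean. On knockout array 1 Gdpd3 stood 6.51 above that mean and the 4 probe sets of the relatives between -0.18 and 0.16. On knockout array 2 Gdpd3 stood at 6.27 and the relatives between -0.21 and 0.51, and on knockout array 3 Gdpd3 stood at 5.99 and the relatives between -0.0080 and 0.62. On the wild type arrays Gdpd3 stood at -0.36, 0.12 and 0.24, and the relatives lay between -0.23 and 0.37 over these arrays. Gdpd3 was thus highest on knockout array 1 and lowest on knockout array 3, and none of the 4 probe sets of the relatives had that order over the knockout arrays. Dnmt1 was lowest on knockout array 1 (8.67) and highest on knockout array 3 (9.34), the reverse of Gdpd3. Foxp3 (9.28, 8.82 and 8.43) had the same order as Gdpd3, and so did the summed T cell and Treg markers (20254, 15936 and 15470). A relation over 3 arrays was not tested.

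The other members of the family that were measured, Gpcpd1 and Gdpd2, did not pass either. Gpcpd1 (also GDE5), which hydrolyses glycerophosphocholine in the cell, had 8.83, 8.90 and 8.70 on knockout arrays 1, 2 and 3, against 8.46, 8.61 and 8.55 in wild type. All knockout values lay above all wild type values, and 25.0% of genes had groups without overlap in either direction. The difference was 0.27 (SE 0.088, limma adjusted p = 0.185). Gdpd2 (also GDE3), which cleaves glycerophosphoinositol, had 4.01, 4.13 and 4.13 in the knockout, against 4.11, 4.16 and 3.97 in wild type (difference 0.013, limma adjusted p = 0.958). The sign of Gdpd2 turned with quantile normalisation, with median centring and without wild type array 3, knockout array 2 or knockout array 3.

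The genes next to Gdpd3 on chromosome 7 were read to see whether they moved with it. Of the 10 protein-coding genes on each side, 14 had a probe set of their own. Of these, 0 were called in either direction, where limma called 1.83% of 12393 genes represented by their brightest probe set. An unadjusted limma p under 0.05 was found for 2 (Tbx6 and Bola2). The same 2 were those whose groups did not overlap, against 25.0% of all genes. Their differences ran from -0.77 to 0.17, with a median of -0.073 against -0.014 over all genes. Ypel3, the next gene on one side and a member of the yippee-like family, had 10.01, 9.92 and 9.67 on knockout arrays 1, 2 and 3, against 9.88, 9.99 and 10.04 in wild type (difference -0.10, SE 0.11, limma adjusted p = 0.672). Coro1a, the nearest measured gene on the other side, which encodes an actin-binding protein of leukocytes, had a difference of -0.12 (adjusted p = 0.535). Its other probe sets, 1435288_at (-0.45, adjusted p = 0.144) and 1455269_a_at (-0.23, adjusted p = 0.258), were lower without overlap and did not pass either. Of all probe sets, 23.4% had groups without overlap in either direction. The mean of the 3 Coro1a probe sets had a difference of -0.27 (adjusted p = 0.126). The T-box factor gene Tbx6 had 5.63, 5.11 and 4.90 in the knockout, against 5.91, 6.02 and 6.01 in wild type, without overlap. Its difference of -0.77 did not pass (SE 0.17, limma adjusted p = 0.0801). It passed without knockout array 1 (-0.98, adjusted p = 0.00748) and with array weights (-0.81, adjusted p = 0.0485). The others among the 4 nearest measured on each side were Bola2 (-0.24), Slx1b (-0.0035), Sult1a1 (-0.12), Ppp4c (-0.042) and Aldoa (0.043), with limma adjusted p of 0.218 to 0.994. The other Bola2 probe sets overlapped between the groups, with differences of -0.18 to 0.050, and did not pass. The sign of Slx1b turned without wild type array 3 or knockout array 3, and that of Ppp4c without knockout array 2. Mapk3, which adjoins Gdpd3 on the side of Coro1a, was not analysed here.

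**Figure D2:**
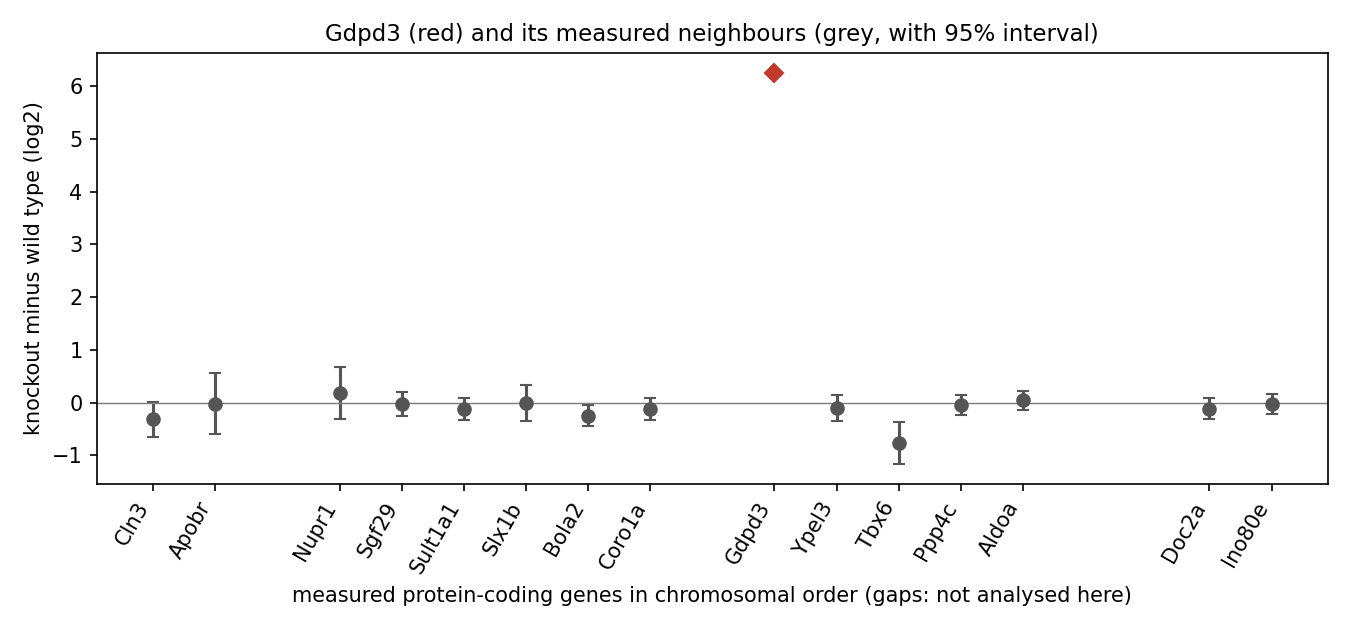
Knockout minus wild type difference (log2) of Gdpd3 (red diamond) and of the 14 measured protein-coding genes among the 10 on each side of it, in chromosomal order, with 95% intervals from limma for the neighbours (grey). Gdpd3 stands at 6.26, and the neighbours lie between -0.77 (Tbx6) and 0.17 (Nupr1).

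The genes whose profile lay nearest to that of Gdpd3 were picked by the root mean square distance over the 6 arrays, after subtracting each gene's wild type mean. This measure shares with the choice of Gdpd3 the difference between the groups, so the values are a description. Over 12392 genes the median distance was 4.44, and the 8 nearest lay at 1.46 to 1.89. In order they were Ltf, Ngp, Camp and Lcn2, which encode granule proteins of neutrophils, then Mnd1, a meiotic recombination gene, Dazl, an RNA-binding protein gene of germ cells, S100a9, a calcium-binding protein gene of neutrophils, and Slfn4, a Schlafen family gene. Mnd1 had 7.96, 7.81 and 7.53 on knockout arrays 1, 2 and 3, against 3.88, 3.44 and 3.67 in wild type. Dazl had 7.44, 7.09 and 6.96 in the knockout, against 3.17, 3.18 and 3.45 in wild type. Both shared with Gdpd3 the order of the knockout arrays, with an SD among them of 0.22 for Mnd1 and 0.25 for Dazl. Ltf, by contrast, had 9.42, 12.12 and 10.69 in the knockout, against 5.79, 6.62 and 6.01 in wild type. Ltf, Ngp, Camp, Lcn2, S100a9 and Slfn4 were all highest on knockout array 2 and lowest on knockout array 1, with an SD of 0.92 to 1.49 among the knockout arrays, against 0.26 for Gdpd3. The neutrophil sums were above wild type on all 3 knockout arrays, and the part of neutrophils in the Gdpd3 values was not tested.

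**Figure D3:**
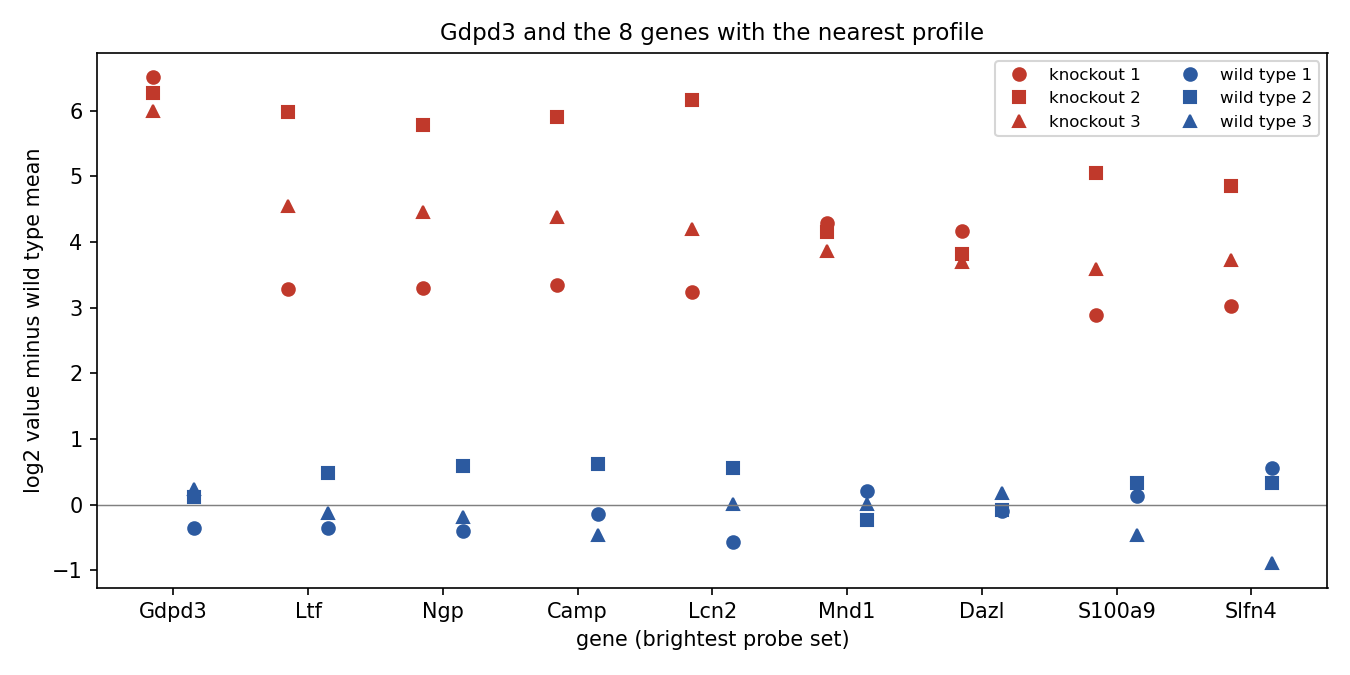
Log2 value minus the wild type mean for Gdpd3 and the 8 genes nearest to it, with knockout arrays in red and wild type arrays in blue and circles, squares and triangles for arrays 1, 2 and 3. Gdpd3, Mnd1 and Dazl have knockout arrays close together with array 1 on top, while in the other 6 genes knockout array 2 is on top and array 1 lowest.

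Genes that make, use or degrade the substrates and products of these enzymes were read in 7 lists, and the proteins reported to bind or be cut by the members in another. Of the 68 measured of 91 genes listed, including Gpcpd1 and Gdpd2, 1 rose, 2 fell and 65 did not pass. That is 4.41%, against 1.83% of all genes, and rests on 3 genes. The groups did not overlap in 32.4% of them, against 25.0% of all genes, and their median difference was 0.0019 against -0.014.

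The gene that rose was Mgll, 1 of 11 measured genes of N-acylethanolamine and endocannabinoid metabolism. It encodes the lipase that hydrolyses monoacylglycerols, including an endocannabinoid. Mgll had 5.53, 6.74 and 6.37 on knockout arrays 1, 2 and 3, against 4.05, 4.23 and 4.60 in wild type, 3.78-fold higher (limma adjusted p = 0.0254). It no longer passed when wild type array 1, 2 or 3 or knockout array 3 was left out, with an adjusted p of up to 0.114. Of its other 3 probe sets, 1453836_a_at also passed (difference 1.43, adjusted p = 0.016), 1450391_a_at had 1.12 (adjusted p = 0.0925) and 1431331_at 0.067 (adjusted p = 0.787). Naaa, a lysosomal enzyme that degrades N-acylethanolamines, had 7.16 ± 0.42 in the knockout and 6.63 ± 0.26 in wild type (SD, n = 3 each, limma adjusted p = 0.279). Its difference of 0.54 was 0.31 without knockout array 2. The list had a median difference of 0.045.

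Of 10 measured genes of lysophosphatidic acid formation, receptors and breakdown, 0 passed and 7 had a negative difference, with a median of -0.047. The lowest p were those of Lpar4, a receptor for the lipid (3.56 ± 0.12 in the knockout and 3.84 ± 0.07 in wild type, SD, n = 3 each, limma adjusted p = 0.187), and Plpp1, a phosphatase that degrades it (3.97 ± 0.14 in the knockout and 4.42 ± 0.38 in wild type, limma adjusted p = 0.281). Without wild type array 1 the Plpp1 difference was -0.23, against -0.45 with all arrays. Of 14 phospholipases and lysophospholipases 0 passed, with a median of -0.016. Pla2g7, which hydrolyses platelet-activating factor, had 5.17, 7.01 and 5.56 on knockout arrays 1, 2 and 3, against 4.05, 5.12 and 3.74 in wild type (difference 1.61, limma adjusted p = 0.178, and 1.06 without knockout array 2). Pld1, which makes phosphatidic acid from phosphatidylcholine, had 4.31, 5.08 and 4.79 in the knockout, against 4.31, 3.65 and 3.89 in wild type (limma adjusted p = 0.152). By their brightest probe sets Mgll, Naaa, Pla2g7 and Pld1 had the order of the summed neutrophil markers over the knockout arrays (14230, 62955 and 25537). Naaa probe set 1452068_at and Pld1 probe set 1425739_at kept it. Mgll probe sets 1453836_a_at and 1450391_a_at and Pld1 probe set 1437112_at were highest on knockout array 3. Mgll probe set 1431331_at was lowest there. The monocyte and macrophage, NK cell and B cell sums had the neutrophil order, though by mean log2 the B cell list was highest on knockout array 3. The part of any of these cells in the values of these genes was not tested.

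Of 12 measured acyltransferases that add fatty acids to glycerol 3-phosphate or lysophospholipids, 1 fell. Lclat1, which acylates lysophospholipids such as lysocardiolipin, had 8.22, 8.17 and 7.95 on knockout arrays 1, 2 and 3, against 9.40, 9.22 and 9.31 in wild type. The groups lay well apart, and the difference of -1.20 (SE 0.099, limma adjusted p = 0.00361) passed under all 14 alternatives, with an adjusted p of up to 0.0397. Mboat1, another lysophospholipid acyltransferase, had 6.71 ± 0.12 in the knockout and 6.26 ± 0.19 in wild type (SD, n = 3 each, limma adjusted p = 0.121). The median over the list was 0.0067.

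Of 10 measured genes of choline and ethanolamine phospholipid synthesis 0 passed, and the median difference was -0.16. Slc44a2, a choline transporter-like gene, had 10.52 ± 0.10 in the knockout and 10.93 ± 0.05 in wild type (SD, n = 3 each, limma adjusted p = 0.0669). It passed without the dimmest 40% of probe sets (adjusted p = 0.048), with trend and robust variance (0.0271) and with array weights (0.0494), but not under the other alternatives, where the adjusted p reached 0.226 without wild type array 1. The other Slc44a2 probe sets, 1428065_at (-0.26, adjusted p = 0.2025) and 1438860_a_at (-0.089, adjusted p = 0.649), did not pass. Pcyt2, of the phosphatidylethanolamine pathway, had 7.89 ± 0.21 in the knockout and 8.31 ± 0.07 in wild type (SD, n = 3 each, limma adjusted p = 0.125). Of 6 measured genes of glycerol and glycerol 3-phosphate, all had a positive difference and 0 passed. Aqp3, a channel for water and glycerol, had 7.09 ± 0.17 in the knockout and 6.58 ± 0.14 in wild type (SD, n = 3 each, limma adjusted p = 0.0781), and Gpd1, which makes glycerol 3-phosphate, had a difference of 0.10 (adjusted p = 0.601).

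Among proteins tied to the relatives by earlier work, Rgs16 fell. It encodes a regulator of G protein signalling that Gde1 was reported to bind. Rgs16 had 6.63, 6.81 and 6.26 on knockout arrays 1, 2 and 3, against 7.51, 7.45 and 7.46 in wild type, a difference of -0.91 (SE 0.14, limma adjusted p = 0.0242), while Gde1 itself had a difference of 0.0078. It no longer passed when wild type array 1, 2 or 3 was left out, with an adjusted p of up to 0.115. Of its other probe sets, 1455265_a_at passed (-0.70, adjusted p = 0.04) and 1451452_a_at did not (-0.46, adjusted p = 0.17). Reck and Gpc6, GPI-anchored proteins that Gdpd5 was reported to cut, had differences of -0.19 (limma adjusted p = 0.637) and -0.062 (adjusted p = 0.727).

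**Figure D4:**
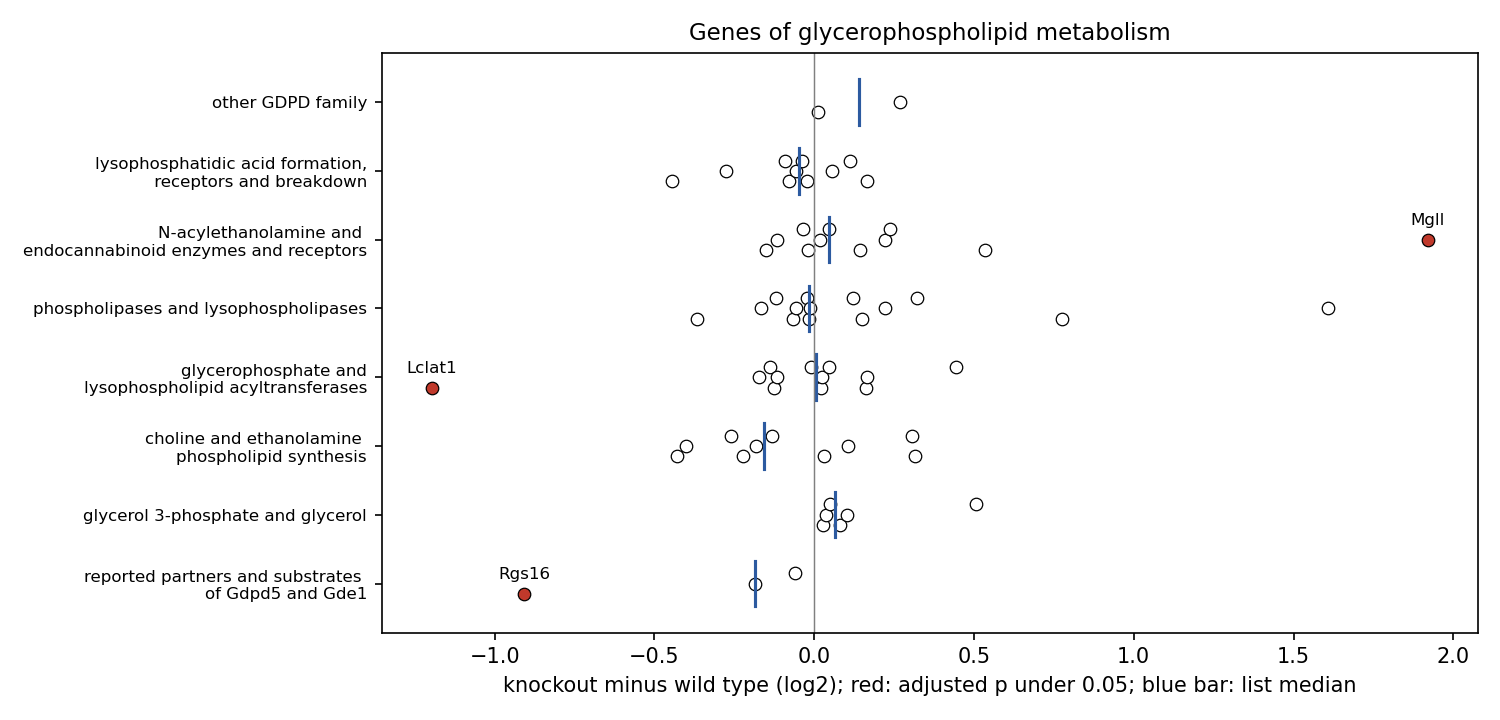
Knockout minus wild type difference (log2, x axis) of each measured gene of the 8 lists (rows), by its brightest probe set, in red where the limma adjusted p was under 0.05 and open otherwise, with the list median as a blue bar. Mgll (1.92), Lclat1 (-1.20) and Rgs16 (-0.91) are the genes that passed.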

How the data were processed

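Total RNA of 6 samples was labelled with biotin in 1 colour and hybridised to oligonucleotide arrays. Each deposited value is a log2 expression level of a probe set, which the authors obtained by RMA according to the submitters' processing notes. The sources used here give no version or settings. Depth has no meaning for arrays, and their number limits the precision. Of 22690 probe sets, 64 controls were left out. Names came from the platform annotation, checked by gene ID against RefSeq of GRCm38.p6: 20380 probe sets had 1 symbol, 691 several and 1555 none.

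All 22626 probe sets were fitted by lmFit and eBayes of limma 3.58.1 under R 4.3.3, knockout minus wild type, two-sided, with Benjamini-Hochberg adjustment over all of them and a threshold of 0.05. Genes of lists and neighbours are represented by their brightest probe set. The fit was tested on simulated data. There it called 29.1% of rises and 33.9% of falls of 0.5 log2, and 80.9% of changes of 1 log2 in either direction. Of unchanged probe sets it called 0.0276%. Changes as small as the differences of the relatives were not simulated. The members, lists and tests were chosen with earlier results of these data known, and the lists come from textbook knowledge.

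Genes named are the members, Dnmt1, Foxp3, the other family genes, the partners, up to 4 called genes of each other list or the 2 with the lowest p, the 4 nearest measured neighbours on each side and the 8 nearest profiles. Nupr1, Il2ra, Ikzf2, Cd14, Ncr1, Hba-a1, Alas2, Slc4a1, Epb42 and Cdh1 were named after their values were seen. Alternatives were quantile normalisation, median centring, leaving out the dimmest 40%, 1 or the mean of a gene's probe sets, array weights, trend and robust variance, the replicate number as a block and leaving out each array. Plots used Python 3.11.15 and matplotlib 3.10.9.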

Additional observations from a re-analysis of the deposited data

How the results depend on the processing

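Under the 14 alternatives Gdpd3 stayed between 6.08 and 6.39, and Gdpd1, Gdpd5 and Gde1 passed under none. The number of probe sets higher in the knockout was 270 of 22626, and with the brightest probe set per gene it was 165 of 12393. It was 166 with the replicate block, 309 with trend and robust variance and 334 with array weights. With each array left out in turn it was 39, 68 and 24 without wild type arrays 1, 2 and 3, and 493, 241 and 144 without knockout arrays 1, 2 and 3. The number lower was 110 of 22626, and with the brightest probe set per gene it was 71 of 12393. It was 182 with trend and robust variance, 169 with array weights and 52 with the replicate block. It was 6, 11 and 5 without wild type arrays 1, 2 and 3, and 263, 92 and 40 without knockout arrays 1, 2 and 3. Of the phospholipid list genes, 2 were higher with the replicate block, the other being Pla2g7 (adjusted p = 0.0243), and 0 to 1 higher and 1 to 2 lower with each array left out. With Slc44a2 added to the 2 that were lower, 3 were lower without the dimmest 40%, with trend and robust variance and with array weights. Of the neighbours of Gdpd3, 1 was lower with array weights (Tbx6) and 0 to 1 with each array left out. Leaving out arrays leaves fewer samples, and the counts both rose and fell. The causes of these changes were not tested.

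Signs turned for small differences that did not pass. Gde1 was at -0.021 with median centring, and at -0.022 to 0.030 with each array left out. The dimmer Gdpd1 probe set was at -0.091 to 0.24 with each array left out. Gdpd2 was at -0.028 with quantile normalisation, -0.016 with median centring and -0.043 to 0.055 with each array left out, Slx1b at -0.090 to 0.14 and Ppp4c at -0.072 to 0.015. The deviations of arrays with the same replicate number had a Pearson r across probe sets of -0.076, 0.114 and -0.010. For arrays with different numbers it ran from -0.114 to 0.123. These values cannot decide whether the numbers pair samples, since a pairing could touch only some genes. Both Gdpd1 probe sets lie among the dimmest 40% and have no value without these, and the dimmer has none with 1 value per gene. Signal over background cannot be read from RMA values.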

Other observations

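The 8 genes with the profile nearest to Gdpd3 differed in the number of CG dinucleotides in their RefSeq promoter windows of 300 bases. Dazl had 28 and Mnd1 12, against 7 for Gdpd3 itself and a median of 7 over all windows. The windows of the neutrophil genes held fewer, with 4 in Ltf, 3 each in Ngp, Camp and Lcn2, and 2 in S100a9, and Slfn4 had 7. Methylation of these windows was not measured, and the counts are a description of the reference sequence.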
